A study of Mus musculus with 2 samples.

Results

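Prostaglandin and leukotriene genes are described here as 10 genes, taken by symbol from the 32285 genes counted: Ptgs1, Ptgs2, Ptges, Ptger2, Ptger4, Hpgd, Alox5, Alox5ap, Ltb4r1 and Lta4h. They were measured by single-cell RNA sequencing of tumours grown from 4T1 cells, a mouse mammary carcinoma line, after 1000000 cells in Matrigel and saline had been placed in the mammary fat pad. The vehicle group received normal saline, and the beta-elemene group received beta-elemene, a plant sesquiterpene, at 30 mg/kg by daily intraperitoneal injection. Tumours of both groups were taken after 18 days of treatment. Each group is 1 library, and the number of mice, their strain and whether tumours were pooled are not given in the sources used here. No test between the groups was therefore possible, and every interval below covers counting error only, not the spread between tumours.

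Prostaglandins and leukotrienes are short-range lipid signals made from arachidonic acid. The cyclooxygenases Ptgs1 and Ptgs2 turn it into prostaglandin H2, the synthase Ptges turns that into prostaglandin E2, the receptors Ptger2 and Ptger4 answer it through cyclic AMP, and the dehydrogenase Hpgd inactivates it. On the other branch Alox5, with its partner protein Alox5ap, makes leukotriene A4, the hydrolase Lta4h turns that into leukotriene B4, and Ltb4r1 is the high-affinity receptor for leukotriene B4 that draws neutrophils and other leukocytes to it. In tumours prostaglandin E2 is known for restraining T, NK and dendritic cells, so that the question for the libraries is which cells hold the enzymes and which hold the receptors.

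The promoters of 9 of the 10 genes were found in RefSeq's table for GRCm38.p6, each 300 bases long, from 250 bases before the annotated start of transcription to 50 bases into the transcript. The name missing from the table is Alox5ap. Shown here are the promoters of the cyclooxygenases, of which Ptgs1 was highest in macrophages and Ptgs2 in neutrophils and fibroblasts, of Hpgd, which was largely restricted to fibroblasts, and of Ltb4r1, which was higher with beta-elemene in every class compared. Capitals mark motifs found by letters on either strand: the cyclic AMP response core spelled TGACG, the E-box spelled CACGTG, the TATA box spelled TATAAA, the GC box spelled CCGCCC, the PU.1-type ETS core spelled GAGGAA, the CEBP-type site spelled TTGCNNAA and the NF-kB-type site.
Ptgs1, chr2:36230176-36230475, plus strand: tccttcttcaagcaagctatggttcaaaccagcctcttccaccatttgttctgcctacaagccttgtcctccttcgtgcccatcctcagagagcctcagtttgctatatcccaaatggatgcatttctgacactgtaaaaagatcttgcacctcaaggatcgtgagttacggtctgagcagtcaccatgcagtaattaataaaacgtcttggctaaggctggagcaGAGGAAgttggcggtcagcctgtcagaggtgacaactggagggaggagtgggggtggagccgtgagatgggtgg
Ptgs2, chr1:150099781-150100080, plus strand: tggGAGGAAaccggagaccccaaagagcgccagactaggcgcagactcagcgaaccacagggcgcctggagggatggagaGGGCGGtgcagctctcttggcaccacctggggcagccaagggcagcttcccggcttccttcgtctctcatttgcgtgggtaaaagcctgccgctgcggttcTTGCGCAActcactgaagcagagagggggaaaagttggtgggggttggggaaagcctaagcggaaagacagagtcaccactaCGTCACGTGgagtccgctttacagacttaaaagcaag
Hpgd, chr8:56294302-56294601, plus strand: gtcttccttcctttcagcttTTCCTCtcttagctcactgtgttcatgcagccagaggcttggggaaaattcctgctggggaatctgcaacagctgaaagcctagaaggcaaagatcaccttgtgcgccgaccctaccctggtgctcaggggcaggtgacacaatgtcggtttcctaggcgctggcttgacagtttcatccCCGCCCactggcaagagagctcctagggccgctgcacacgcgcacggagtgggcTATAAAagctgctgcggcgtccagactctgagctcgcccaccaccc
Ltb4r1, chr14:55765712-55766011, plus strand: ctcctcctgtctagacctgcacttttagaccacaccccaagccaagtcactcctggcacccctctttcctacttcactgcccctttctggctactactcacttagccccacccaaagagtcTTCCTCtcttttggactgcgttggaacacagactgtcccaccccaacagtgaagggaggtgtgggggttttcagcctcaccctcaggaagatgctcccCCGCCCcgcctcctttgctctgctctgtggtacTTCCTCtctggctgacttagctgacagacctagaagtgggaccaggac
The Ptgs2 promoter held 5 of the 7 motifs. Counted from the annotated start as base 1, its response core lay at bases 14 to 18, and its E-box at 17 to 22 overlapped it; its CEBP-type site began at -69, its GC box at -170 and its ETS core at -247. In the Ptgs1 promoter the ETS core at -24 was the single match. The Ltb4r1 promoter held an ETS core at -129 and another at 3, and a GC box at -31, and the Hpgd promoter held a TATA box at 5, a GC box at -50 and an ETS core at -230. Of 32851 mouse promoters in the table, 20.8% held the response core, 7.15% the E-box, 13.6% the TATA box, 35.7% the GC box, 28.3% the ETS core, 10.8% the CEBP-type site and 1.63% the NF-kB-type site. These are matches of letters, and no binding was measured.

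In mm10, the build of the files, Ptgs1 lies at chr2:36230426-36252272 (plus strand), Ptgs2 at chr1:150100031-150108227 (plus), Ptges at chr2:30889471-30929863 (minus), Ptger2 at chr14:44988195-45003820 (plus) and Ptger4 at chr15:5206661-5244187 (minus). Hpgd lies at chr8:56294585-56321043 (plus), Alox5 at chr6:116410077-116461178 (minus), Alox5ap at chr5:149264767-149288153 (plus), Ltb4r1 at chr14:55765962-55768494 (plus) and Lta4h at chr10:93453411-93484875 (plus). All are protein-coding. Of these, 3 share exonic bases with a counted gene on the other strand: Ptger2 shares 246 bases with Gm17173, Alox5ap 189 bases with Gm19719, and Ptger4 82 bases with Ttc33. Whether counting used the strand is not given in the sources used here, so reads in those stretches could belong to either gene.

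After filtering, 10415 vehicle and 10525 beta-elemene cells remained, with 37 barcodes occurring in both libraries. The cells were clustered anew and named from markers, since no annotation was used here. Of the resulting classes, 8 had at least 100 cells in each library and were compared; all of their own markers had UMIs (unique molecular identifiers, that is, counted transcripts) in both libraries. With vehicle cells first and beta-elemene cells second, they were malignant-like (4149, 3409), macrophage-like (2743, 2895), neutrophil-like (1129, 1780), monocyte-like (691, 729), T and NK-like (578, 636), fibroblast-like (565, 570), endothelial-like (188, 187) and dendritic-like cells (133, 125); "-like" is left off from here on. Median depth ran from 1922 and 1981 UMIs in neutrophils to 21130 and 21829.5 in fibroblasts. The share of each class's UMIs that could be free RNA, judged from markers of other classes, was 3.24% to 10.8% and highest in neutrophils. Levels are UMIs summed over the cells of a class, per 1000000 UMIs of that class (CPM), with exact Poisson intervals, and a pair of levels gives vehicle first. A ratio is beta-elemene over vehicle, with its exact 95% interval. Because the clusters were made from the same cells, differences between classes are a description. Having UMIs of all own markers does not tell the classes apart, since malignant cells also had UMIs of all 11 neutrophil markers. Each class's own list summed highest in that class among those compared. For monocytes the lead was small, 3531 and 3729 CPM against 3529 and 3543 CPM in fibroblasts.

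**Figure D1:**
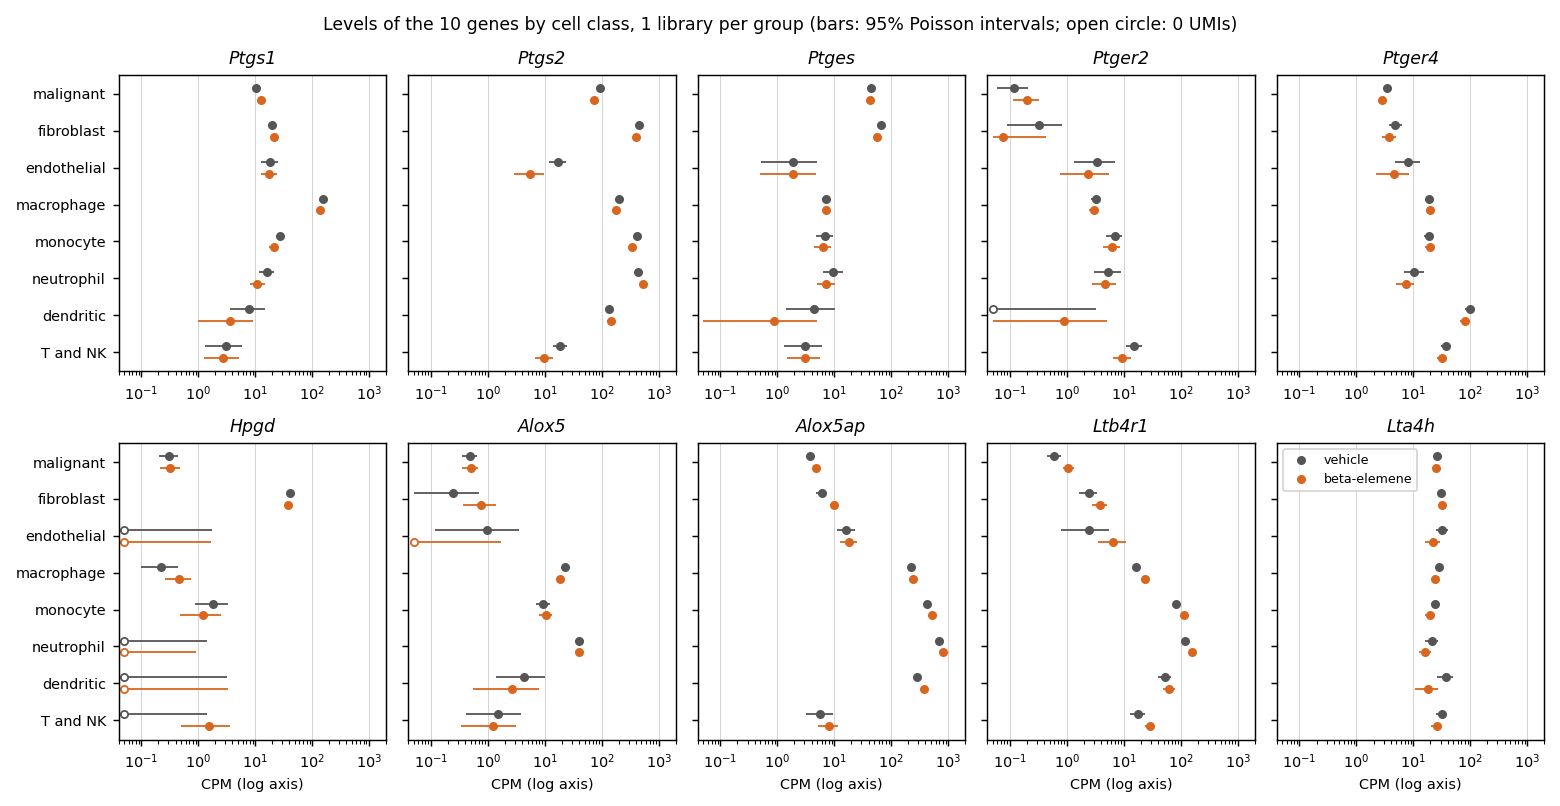
CPM (log axis) of the 10 genes in the 8 compared classes; grey is the vehicle library, orange the beta-elemene library, bars are 95% Poisson intervals, and an open circle at the left edge stands for 0 UMIs. The classes are separated by far more than the libraries for 9 of the genes; Lta4h lies between 16.1 and 36.7 CPM everywhere.

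Ptgs1, the constitutive cyclooxygenase, was a macrophage transcript in both libraries. Macrophages held 157 and 137 CPM, from 5571 and 4721 UMIs. Every other compared class held between 2.75 and 26.9 CPM, led by monocytes (26.9 and 21.3 CPM) and fibroblasts (19.4 and 21.1 CPM). Below macrophages no class was apart from the next in that order, where apart means that its intervals in both libraries lay above both of the next class's. Within the vehicle library alone, the interval of monocytes lay above that of fibroblasts and the interval of neutrophils above that of malignant cells.

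Within macrophages Ptgs1 was highest in the dividing sub-cluster led by histone genes (213 and 178 CPM), with 187 and 171 CPM in the Fcrls and Apoc2 sub-cluster and 175 and 149 CPM in the MHC class II sub-cluster. The Ccl8 and Cd163 sub-cluster held 50.6 and 33.2 CPM. In fibroblasts Ptgs1 was highest in the Cd55 and Sema3c sub-cluster (51.5 and 51.4 CPM) and in the Ly6c1 and Clec3b sub-cluster (43.9 and 35.1 CPM), against 5.74 and 5.55 CPM in the Pgf and Krt19 sub-cluster. The libraries differed less than these states did. Ptgs1 was lower with beta-elemene in macrophages, at a ratio of 0.874 (0.841 to 0.909), and the interval lay below 1 in 4 of 6 macrophage sub-clusters with enough cells and UMIs, the lowest being 0.656 (0.501 to 0.855) in Ccl8 and Cd163 cells. It was higher in malignant cells, at 10.3 and 12.7 CPM and a ratio of 1.24 (1.13 to 1.35), above 1 in 5 of 6 sub-clusters. In the other 4 classes with enough UMIs the interval included 1.

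Ptgs2, the inducible cyclooxygenase, was spread over neutrophils, fibroblasts, monocytes and macrophages. Neutrophils held 439.8 and 522 CPM, fibroblasts 458 and 401 CPM, and monocytes 420.4 and 342 CPM. Fibroblasts led in vehicle and neutrophils in beta-elemene, and among these first 3 no class was apart from the next. Macrophages followed with 203 and 176 CPM, dendritic cells with 136 and 146 CPM and malignant cells with 94.2 and 73.0 CPM, each apart from the next. T and NK cells (18.6 and 9.77 CPM) and endothelial cells (16.8 and 5.56 CPM) were lowest.

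The share of cells with a Ptgs2 UMI gave the same picture for neutrophils. Every cell with at least 1000 UMIs was thinned to that number, which left out 130 of 1129 and 191 of 1780 neutrophils. Of the other neutrophils, 28.0% and 34.7% had a Ptgs2 UMI, with binomial intervals of 25.3% to 30.9% and 32.3% to 37.1%. The T and NK cells, which come close to lacking it, had shares of 1.10% and 0.976%. Without thinning, the shares were 39.0% and 45.6% of neutrophils, at median depths of 1922 and 1981 UMIs, against 4.5% and 3.62% of T and NK cells, at 4046.5 and 4399 UMIs.

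Counted by source, malignant cells gave 33.6% and 26.4% of the Ptgs2 UMIs in the kept cells of the vehicle and beta-elemene libraries. Macrophages gave 27.5% and 27.5%, fibroblasts 21.7% and 23.7%, monocytes 8.87% and 8.98%, and neutrophils 4.36% and 9.75%. Neutrophils are shallow cells, so their part of all UMIs was small despite their high CPM, and there were more of them in the beta-elemene library. Within a class Ptgs2 was held unevenly: the 10% of malignant cells with most of it gave 55.9% and 58.9% of that class's Ptgs2 UMIs, and the same 10% of fibroblasts 50.3% and 46.3%.

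Ptgs2 differed between cell states within each class. In malignant cells it was highest, at 218 and 151 CPM, in the sub-cluster led by Ero1l, Bnip3 and Ndrg1. These genes are known to answer low oxygen. Next was the Msmp and Csf3 sub-cluster at 125 and 106 CPM. The Ptn and Prlr sub-cluster of the class held 4.05 and 6.14 CPM. Whether that sub-cluster is of tumour or normal epithelial cells was not tested. In fibroblasts the Pgf, Krt19 and Cryab sub-cluster held 919 and 835 CPM and the Saa3 and Cxcl5 sub-cluster 487 and 772 CPM, whereas the Ly6c1 and Clec3b sub-cluster held 179.7 and 179.8 CPM. The macrophage sub-cluster led by Inhba, Mmp12 and Cxcl3 held 449.8 and 380.1 CPM, and the Ccl8 and Cd163 sub-cluster 73.5 and 69.3 CPM.

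Among neutrophils the sub-cluster led by interferon-induced genes (Gbp5, Ifit1 and Rsad2) held 829 and 839 CPM, the Steap4 and Fgl2 sub-cluster 535 and 761 CPM, and the Retnlg and Stfa3 sub-cluster 88.4 and 177 CPM. The few neutrophils with granule genes (Camp, Ltf and Ngp; 8 and 12 cells) had 0 UMIs in both libraries. Monocytes held 276 and 174 CPM in the Ccl8 and Cbr2 sub-cluster and 565 and 427 CPM in the Dcstamp and Spp1 sub-cluster. In dendritic cells, 95 and 104 of 155 and 164 UMIs lay in the Dcstamp and Mmp12 sub-cluster, whose leading genes are also those of a monocyte sub-cluster. Within malignant cells, fibroblasts, macrophages and neutrophils the level thus spanned a wider range between states than between the libraries.

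**Figure D2:**
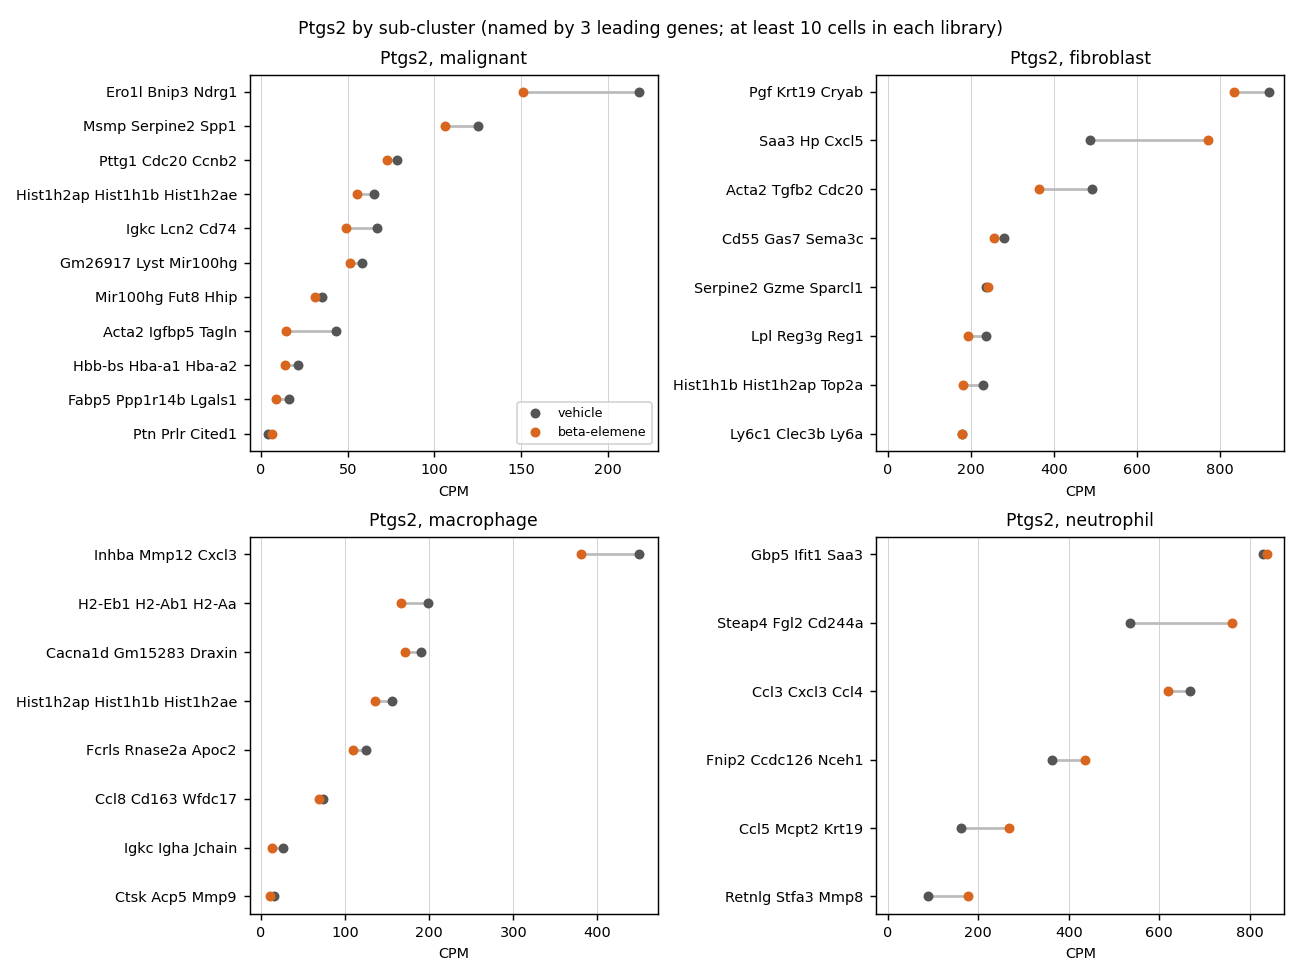
Ptgs2 CPM (linear axis) in sub-clusters of malignant cells, fibroblasts, macrophages and neutrophils with at least 10 cells in each library; grey is vehicle, orange is beta-elemene, and each row is named by its 3 leading genes. In macrophages every beta-elemene point lies left of the vehicle point, in malignant cells all but the lowest do, and in neutrophils 5 of 6 lie right of it.

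Between the libraries Ptgs2 was lower with beta-elemene in malignant cells, at a ratio of 0.775 (0.749 to 0.801), in fibroblasts, at 0.875 (0.843 to 0.909), in macrophages, at 0.868 (0.839 to 0.898), and in monocytes, at 0.814 (0.766 to 0.864). In neutrophils it was higher, at 1.19 (1.10 to 1.28). In dendritic cells it was 1.08 (0.862 to 1.35). Neutrophils were thus the one class whose interval lay above 1.

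The malignant ratio lay below 1 in all 7 sub-clusters with enough cells and UMIs, between 0.692 in the Ero1l sub-cluster and 0.924 in the Pttg1 and Cdc20 sub-cluster, with 5 intervals below 1. In macrophages it lay below 1 in 6 of 6 sub-clusters, 4 of them with an interval below 1. Fibroblast sub-clusters went both ways: 3 had an interval below 1, the lowest at 0.743 (0.680 to 0.810) in Acta2 and Tgfb2 cells, and the Saa3 and Cxcl5 sub-cluster (46 and 22 cells) had one above 1 at 1.59 (1.38 to 1.81). Monocyte sub-clusters ranged from 0.630 (0.528 to 0.751) in Ccl8 and Cbr2 cells upward, with 3 intervals below 1 and 1 above it. Of 6 neutrophil sub-clusters, 5 were above 1, led by the Retnlg and Stfa3 sub-cluster at 2.01 (1.43 to 2.86), and the Ccl3 and Cxcl3 sub-cluster was at 0.927 (0.786 to 1.09).

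The monocyte direction depended on the clustering: the ratio was 1.28 with each library clustered alone and 1.01 with another random seed. With macrophages and monocytes summed, the ratio was 0.861 (0.836 to 0.887). The macrophage ratio stayed between 0.764 and 0.880 under all alternatives.

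The lowest classes held few Ptgs2 UMIs. In T and NK cells the ratio was 0.525 (0.326 to 0.837), from 49 and 32 UMIs, where free RNA was estimated at 9.46 and 6.35 CPM of the 18.6 and 9.77 CPM measured. Sub-clusters led by Ptn and Calca (14 and 13 UMIs) and by Il23r and Zbtb16 (16 and 2 UMIs) held most of the vehicle total. In endothelial cells 35 and 12 UMIs were counted, too few for a ratio, and 23 and 2 of them lay in a sub-cluster of 14 and 15 cells whose leading genes include the myeloid gene Lyz2.

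Ptges, the inducible prostaglandin E synthase, was a stromal and malignant transcript. Fibroblasts held 64.9 and 57.4 CPM and malignant cells 43.3 and 42.1 CPM, each apart from the class after it. Neutrophils, macrophages and monocytes lay between 6.23 and 9.61 CPM, and free RNA was estimated at 19.6% to 38.6% of that. Malignant cells gave 76.2% and 73.3% of the Ptges UMIs in kept cells and fibroblasts 15.2% and 16.3%.

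Within malignant cells Ptges reached 82.8 and 121 CPM in the Lyst and Ghr sub-cluster and 68.3 and 69.9 CPM in the Msmp and Csf3 sub-cluster, and was 22.1 and 24.9 CPM in dividing cells led by histone genes and Top2a. In vehicle fibroblasts its highest level was in the Pgf and Cryab sub-cluster (86.1 and 58.1 CPM), which was also highest for Ptgs2, and in beta-elemene in the Ly6c1 and Clec3b sub-cluster (56.4 and 76.4 CPM). The fibroblast ratio was 0.884 (0.799 to 0.978), with sub-clusters on both sides of 1, the lowest being 0.674 (0.548 to 0.828) in Pgf and Cryab cells. The malignant ratio of 0.972 (0.928 to 1.02) and the macrophage ratio of 1.02 (0.855 to 1.22) had intervals that included 1, although the Lyst and Ghr malignant sub-cluster stood at 1.46 (1.15 to 1.87).

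Cells with a UMI of both Ptgs2 and Ptges were compared with the product of the separate shares, at 1000 UMIs per cell. In malignant cells both were seen in 18 of 4056 vehicle and 9 of 3299 beta-elemene cells (products 14.9 and 7.43). In fibroblasts both were seen in 11 of 561 vehicle and 8 of 567 beta-elemene cells (products 9.11 and 6.08). The counts were close to the products, and too sparse to tell whether the same cells make both enzymes.

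Hpgd, which inactivates prostaglandin E2, was found in fibroblasts at 40.3 and 38.3 CPM. No other compared class exceeded 1.81 CPM, and neutrophils, dendritic and endothelial cells had 0 UMIs in both libraries, which allows up to 1.15 and 0.730 CPM in neutrophils. Fibroblasts gave 87.0% and 86.0% of its UMIs in kept cells.

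Within fibroblasts Hpgd reached 149 and 110.1 CPM in the Cd55 and Sema3c sub-cluster, 81.0 and 91.7 CPM in the Lpl and Reg3g sub-cluster, and 55.4 and 46.6 CPM in the Ly6c1 and Clec3b sub-cluster. A dividing sub-cluster of 10 and 18 cells held 122 and 78.5 CPM. In the Pgf, Krt19 and Cryab sub-cluster, which held 919 and 835 CPM of Ptgs2, Hpgd was at 0.718 and 0.370 CPM (2 and 1 UMIs), and in the Saa3 and Cxcl5 sub-cluster it was at 0. The fibroblast sub-clusters highest for Ptgs2 thus held almost no Hpgd.

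At 1000 UMIs per cell, fibroblasts with a UMI of both Ptgs2 and Hpgd were 2 of 561 vehicle and 2 of 567 beta-elemene cells (products 4.30 and 3.16). Outside fibroblasts a sub-cluster of the malignant class, of 40 and 29 cells, held 55.3 and 32.8 CPM. It gave 18 and 9 of the 29 and 26 Hpgd UMIs of that class. Its leading genes were Acta2, Igfbp5, Tagln, Tpm2, Csn3 and Wfdc18, and whether its cells are malignant was not tested. The fibroblast ratio was 0.949 (0.837 to 1.08), made of 0.737 (0.625 to 0.870) in the Cd55 sub-cluster and 1.13 (0.837 to 1.53) in the Lpl sub-cluster.

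The prostaglandin E2 receptors differed in the class with the highest level. Ptger4 was highest in dendritic cells at 97.1 and 82.1 CPM, followed by T and NK cells at 37.9 and 32.1 CPM, both apart from the next class. Macrophages (19.0 and 19.5 CPM) and monocytes (19.0 and 19.4 CPM) were not apart, and malignant cells were lowest at 3.43 and 2.87 CPM. The dendritic sub-cluster led by Ccl22 and Fscn1, genes known from mature dendritic cells, held 164 and 156 CPM of Ptger4, and the T and NK sub-cluster led by S1pr1 and Klf2 held 63.1 and 45.4 CPM. Ccl8 and Cd163 macrophages held 39.1 and 35.4 CPM. Counted by source, macrophages gave 47.0% and 51.2% of the Ptger4 UMIs in kept cells. Dendritic cells gave 7.75% and 7.02%, and T and NK cells 6.98% and 8.02%.

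Ptger2 was low everywhere and no class was apart from the next. T and NK cells held 15.2 and 9.46 CPM (40 and 31 UMIs), monocytes 6.87 and 6.23 CPM, dendritic cells 0 and 0.893 CPM, and fibroblasts and malignant cells at most 0.322 CPM. No receptor ratio passed 1.5-fold with an interval excluding 1. The interval lay below 1 for Ptger4 in malignant cells alone, at 0.836 (0.703 to 0.994), and that ratio was 1.10 in the largest malignant sub-cluster. For Ptger2 in T and NK cells it was 0.623 (0.377 to 1.02), an interval that allows both no difference and a much lower level.

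Alox5, 5-lipoxygenase, was a myeloid transcript of low level. Neutrophils held 40.7 and 40.6 CPM, macrophages 22.5 and 18.7 CPM and monocytes 9.40 and 10.6 CPM, and the first 2 were apart from the class after them. Malignant cells held 0.492 and 0.501 CPM. Among macrophages Alox5 was highest in the Ccl8 and Cd163 sub-cluster, at 64.2 and 79.2 CPM, against 9.49 and 6.64 CPM in the MHC class II sub-cluster. For Ptgs1 the order of those sub-clusters was the opposite. The 8 and 12 neutrophils with granule genes held 131 and 135 CPM, from 16 and 22 UMIs.

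The neutrophil Alox5 ratio was 0.997 (0.777 to 1.28) and the macrophage ratio 0.835 (0.751 to 0.927). The macrophage value joined sub-clusters of both directions, 1.23 (1.01 to 1.5) in Ccl8 and Cd163 cells, 0.448 (0.308 to 0.641) in dividing cells and 0.699 (0.526 to 0.926) in the MHC class II sub-cluster, the largest.

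Alox5ap, which hands arachidonic acid to 5-lipoxygenase, was high in all myeloid classes. Neutrophils held 682 and 823 CPM, monocytes 427 and 519 CPM and dendritic cells 282 and 370.4 CPM. Macrophages held 225 and 241 CPM, and each of these 4 classes was apart from the next. Among neutrophils the Retnlg and Stfa3 sub-cluster was highest (1445 and 1722 CPM), and the Ccl3 and Cxcl3 sub-cluster, where Ptgs2 was at 668 and 619 CPM, held 347 and 529 CPM. The dendritic sub-cluster led by Ccl22 and Fscn1 was low for Alox5ap, at 4.01 and 26.0 CPM, against 281 to 531 CPM in the other 4 dendritic sub-clusters.

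In cells thinned to 1000 UMIs, 39.0% and 43.1% of neutrophils had an Alox5ap UMI, with binomial intervals of 36.0% to 42.1% and 40.7% to 45.6%, against 0.518% and 0.546% of malignant cells. Unthinned, the shares were 54.3% and 57.8% against 6.92% and 9.01%, at median depths of 1922 and 1981 against 20108 and 20530 UMIs. A UMI of both Alox5 and Alox5ap was seen in 18 of 999 vehicle and 29 of 1589 beta-elemene cells (products 13.3 and 27.6) among neutrophils.

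Alox5ap was higher with beta-elemene in all 7 classes with enough UMIs, and the interval lay above 1 in 6 of them. The ratio was 1.21 (1.14 to 1.28) in neutrophils, 1.21 (1.15 to 1.28) in monocytes and 1.31 (1.13 to 1.52) in dendritic cells. In macrophages it was 1.07 (1.04 to 1.11). It lay above 1 in 6 of 6 neutrophil, 5 of 5 monocyte and 5 of 6 macrophage sub-clusters with enough cells and UMIs.

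Outside the myeloid classes Alox5ap was low, and in fibroblasts, malignant cells and T and NK cells free RNA was estimated to give most of it. In fibroblasts its ratio was 1.66 (1.24 to 2.23) at 6.04 and 9.99 CPM, of which free RNA was estimated to give 5.23 and 6.71 CPM, and with every cell weighted alike it was 1.30 (0.974 to 1.76). With the estimated free RNA subtracted it was 4.07, a ratio of small remainders for which no interval is given. In malignant cells it was 1.31 (1.13 to 1.52) at 3.69 and 4.84 CPM, with an estimate of 3.02 and 3.45 CPM, and 2.08 after the subtraction. Endothelial cells held 16.3 and 18.1 CPM, above their estimate of 2.94 and 5.76 CPM, and their ratio of 1.11 (0.681 to 1.81) was 0.339 (0.109 to 0.900) without the Lyz2 sub-cluster. The 11 neutrophil markers summed to 155 and 392 CPM in fibroblasts and to 152 and 187 CPM in malignant cells; their part in these ratios was not tested.

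Lta4h, the leukotriene A4 hydrolase, was the most evenly held of the genes. Vehicle levels ran from 21.1 CPM in neutrophils to 36.7 CPM in dendritic cells, and beta-elemene levels from 16.1 CPM in neutrophils to 31.7 CPM in fibroblasts. No class was apart from its neighbour, and dendritic cells were first in vehicle and next to last in beta-elemene. The few neutrophils with granule genes stood out within their class, with 229 and 129 CPM and 28 and 21 of the 55 and 66 neutrophil UMIs.

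Lta4h was lower with beta-elemene in 7 of 8 classes, with the interval below 1 in 4. The ratio was 0.929 (0.875 to 0.986) in malignant cells, 0.844 (0.770 to 0.927) in macrophages and 0.677 (0.456 to 0.998) in endothelial cells. In dendritic cells it was 0.486 (0.270 to 0.847), from 42 and 20 UMIs, of which the Dcstamp and Mmp12 sub-cluster held 19 and 3. With every dendritic cell weighted alike the ratio was 0.627 (0.349 to 1.09).

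Ltb4r1, the leukotriene B4 receptor, was highest in neutrophils at 118 and 158 CPM, then in monocytes at 82.1 and 112 CPM and dendritic cells at 52.5 and 61.6 CPM. T and NK cells (17.8 and 29.0 CPM) and macrophages (16.3 and 23.2 CPM) were not apart, and malignant cells were lowest at 0.599 and 1.07 CPM. The receptor thus lay highest in the same 3 classes as Alox5ap.

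In neutrophils Ltb4r1 was 336 and 288 CPM in the few cells with granule genes, 141 and 219.8 CPM in the interferon sub-cluster and 46.6 and 45.1 CPM in the Fnip2 sub-cluster. Monocytes with S100a8 and Cxcl3 held 157 and 189.9 CPM. Macrophages with Inhba and Mmp12 held 41.6 and 57.3 CPM, whereas Ccl8 and Cd163 macrophages, the highest for Alox5, held 2.86 and 2.95 CPM. In dendritic cells the Cd209a sub-cluster held 138 and 145 CPM, and the Ccl22 sub-cluster had 0 UMIs in both libraries.

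In T and NK cells Ltb4r1 was concentrated in a sub-cluster led by Il23r and Zbtb16 (17 and 11 cells; 131 and 448 CPM, from 15 and 24 UMIs) and in one led by Ptn and Calca (45 and 50 cells; 64.6 and 109 CPM, from 12 and 33 UMIs). The sub-cluster led by Foxp3, the factor of regulatory T cells, held 23.3 and 58.9 CPM, from 7 and 14 UMIs. The sub-clusters led by Ccl5 and Gzmk and by Gzmc and Ncr1 held at most 5.90 CPM.

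**Figure D3:**
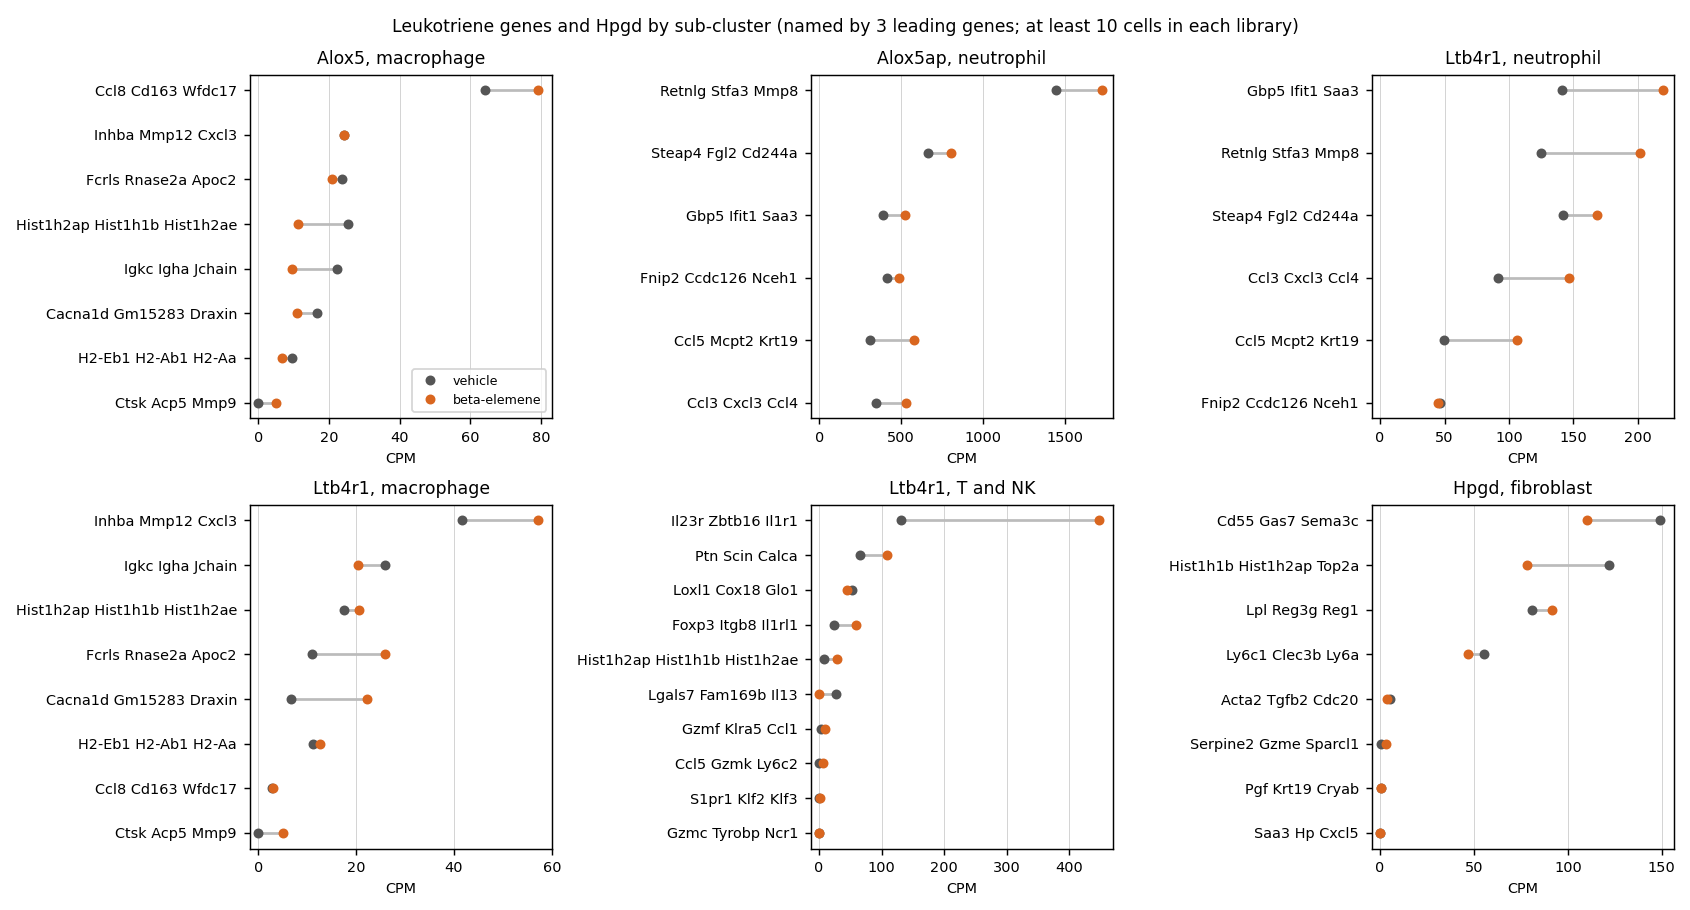
CPM (linear axis) of Alox5, Alox5ap, Ltb4r1 and Hpgd in sub-clusters with at least 10 cells in each library; grey is vehicle, orange is beta-elemene, and rows are named by 3 leading genes. Ccl8 and Cd163 macrophages are first for Alox5 and next to last for Ltb4r1, Retnlg and Stfa3 neutrophils are first for Alox5ap, and Hpgd is near 0 in 4 of 8 fibroblast sub-clusters.

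The receptor was higher with beta-elemene in all 7 classes with enough UMIs, with the interval above 1 in 5. The ratio was 1.43 (1.28 to 1.59) in macrophages, 1.34 (1.17 to 1.55) in neutrophils and 1.37 (1.21 to 1.55) in monocytes. In dendritic cells it was 1.17 (0.818 to 1.69). It lay above 1 in 4 of 4 macrophage, 4 of 5 neutrophil and 3 of 4 monocyte sub-clusters with enough cells and UMIs; the exceptions were the Fnip2 neutrophils, the largest sub-cluster, at 0.967 (0.565 to 1.69) and the Ccl8 and Cbr2 monocytes at 0.652 (0.424 to 0.993). The largest macrophage difference was in the Fcrls and Apoc2 sub-cluster, at 2.34 (1.82 to 3.02).

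Ltb4r1 passed 1.5-fold in T and NK and in malignant cells. In T and NK cells the ratio was 1.63 (1.13 to 2.36), from 47 and 95 UMIs, and there free RNA was estimated at 0.551 and 0.700 CPM. In malignant cells it was 1.78 (1.25 to 2.54), from 56 and 85 UMIs at 0.599 and 1.07 CPM, with an estimate of 0.357 and 0.538 CPM. The neutrophil markers summed to 202 and 287 CPM in T and NK cells and were also higher with beta-elemene in malignant cells, as given above for Alox5ap; their part was not tested.

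Over all barcodes as deposited, Ltb4r1 stood at 9.68 and 16.6 CPM, a ratio of 1.72 (1.61 to 1.83), which also holds the larger number of neutrophils; in such whole-library sums more cells of a type and more RNA per cell cannot be told apart. Alox5ap stood at 82.0 and 107 CPM, a ratio of 1.30 (1.27 to 1.33), and Ptgs2 at 166 and 151 CPM, a ratio of 0.906 (0.890 to 0.922).

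**Figure D4:**
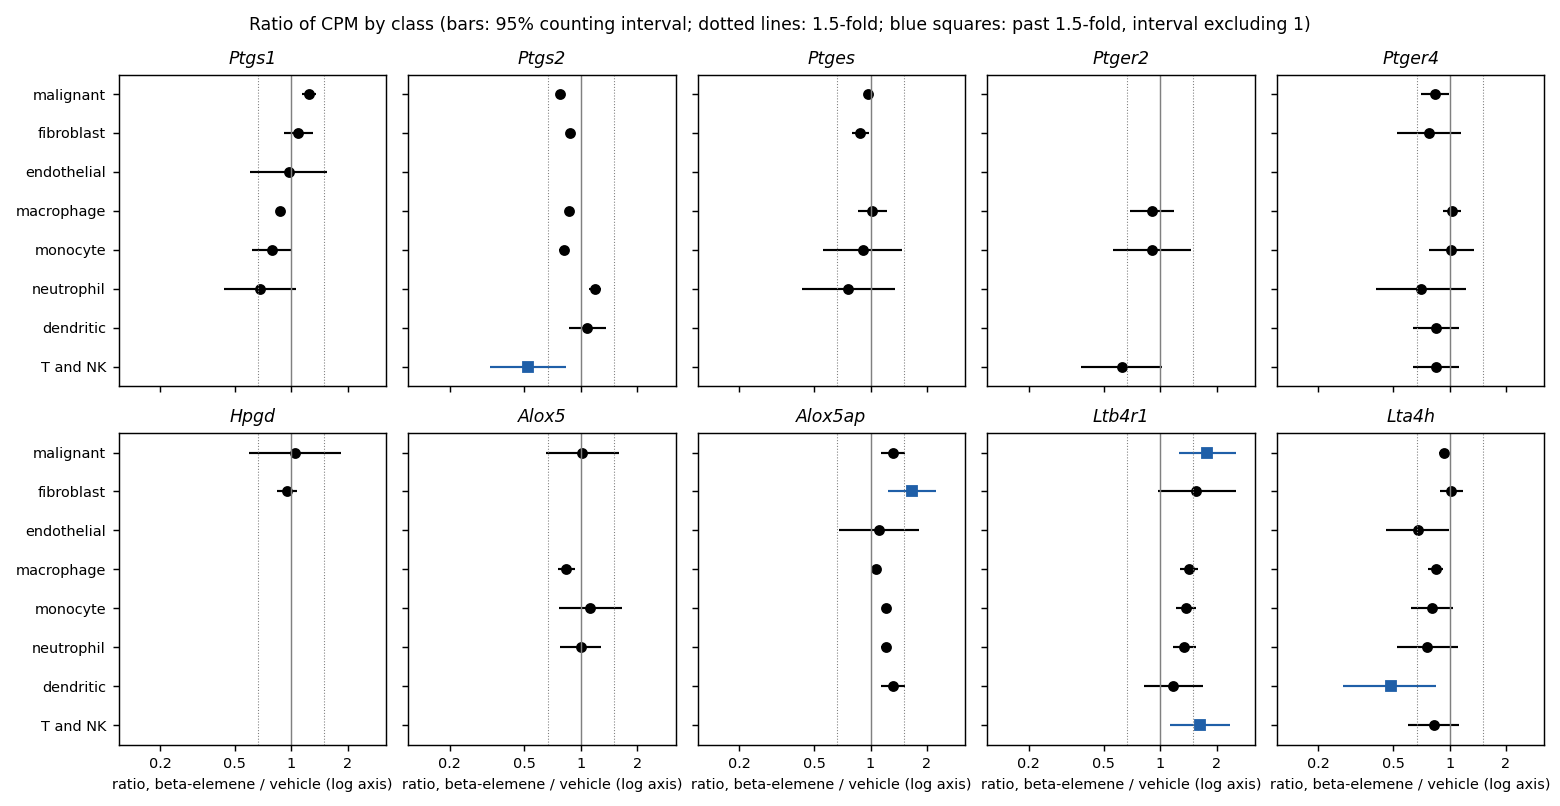
Ratio of CPM, beta-elemene over vehicle (log axis), for each gene and class with at least 50 UMIs in both libraries together; bars are 95% counting intervals, dotted lines mark 1.5-fold, and blue squares are the 5 values past it whose interval excludes 1. Alox5ap and Ltb4r1 lie right of 1 in every class shown, and neutrophils alone have a Ptgs2 interval right of 1.

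A difference was called when it was at least 1.5-fold either way, its interval excluded 1, and the gene had at least 50 UMIs in both libraries together. Of 56 pairs of gene and class, 3 were called higher and 2 lower; the interval lay above 1 in 13, below 1 in 13 and included 1 in 30. Each called pair rested on 205 UMIs or fewer.

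In malignant cells 1 of 9 was called, Ltb4r1, against 8.47% of all genes there (1.42% higher and 7.05% lower), and the interval lay above 1 for 3 and below 1 for 3, against 22.4% and 30.1% of all genes. In macrophages 0 of 9 were called (3.67% of all genes, 1.07% higher and 2.59% lower), with 2 intervals above and 4 below 1 (16% and 19.6%). In monocytes 0 of 9 were called (4.68%, 2.04% higher and 2.64% lower), with 2 above and 1 below (12.7% and 12.9%). In neutrophils 0 of 8 were called (6.0%, 1.59% higher and 4.41% lower), with 3 above, Ptgs2, Alox5ap and Ltb4r1, and 0 below (8.6% and 11.3%).

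In fibroblasts 1 of 8 was called, Alox5ap (5.48%, 2.35% higher and 3.13% lower), with 1 above and 2 below (19.5% and 11.5%). In endothelial cells 0 of 3 were called (5.48%, 3.35% higher and 2.13% lower), with 0 above and 1 below (11.2% and 5.31%). In dendritic cells 1 of 5 was called, Lta4h lower (7.74%, 3.05% higher and 4.69% lower), with 1 above and 1 below (8.32% and 8.95%). In T and NK cells 2 of 5 were called, Ptgs2 lower and Ltb4r1 higher (5.38%, 2.48% higher and 2.9% lower), with 1 above and 1 below (8.38% and 10.8%). The median log2 ratio of the genes ran from -0.28 in T and NK cells to 0.11 in dendritic cells, and that of all genes from -0.04 to 0.06. With so few genes per class, a single called gene is a share of the list above the background, and the counts single out no class.

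By the Pearson correlation of log2(CPM + 1) over 22 points, 11 named classes in 2 libraries that share cells' depth and free RNA, the gene most like Ptgs2 was Vegfa (0.942), the vascular growth factor, and Ptgs1 was nearest to Cx3cr1 (0.920), the fractalkine receptor of macrophages. Ptges was nearest to Pdgfrl (0.959), Hpgd to Vegfd (0.958), a growth factor of lymphatic vessels, and Alox5 to Gm6209 (0.967). Alox5ap was nearest to Cd300a (0.930), an inhibitory receptor of myeloid cells, and Ltb4r1 to Pmaip1 (0.908). For Ptger4 it was Ifi209 (0.863), for Ptger2 Gm34086 (0.855) and for Lta4h Arl6ip6 (0.977). These are descriptions across classes.

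A wider list of 46 genes of the same pathways gave the rest of the map. Release of arachidonic acid by Pla2g4a, the cytosolic phospholipase, was highest in macrophages (82.0 and 86.1 CPM), with 57.0 and 58.8 CPM in malignant cells. The macrophage class, highest for Ptgs1, also held Tbxas1, the thromboxane synthase (191 and 175 CPM), and Hpgds, a prostaglandin D synthase (86.8 and 97.9 CPM). Whether the same cells held them was not counted. Hpgds was highest in Ccl8 and Cd163 macrophages (120 and 133 CPM), where Ptgs1 was low. Dividing macrophages, highest for Ptgs1, held 76.5 and 102 CPM of Hpgds. The MHC class II sub-cluster held 101 and 117 CPM and the Fcrls sub-cluster 101 and 97.8 CPM. Ptgis, the prostacyclin synthase, was a fibroblast transcript (191 and 225 CPM). Slco2a1, the prostaglandin transporter, was highest in malignant cells (327 and 303 CPM).

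On the leukotriene side, Ltc4s, which makes leukotriene C4, was highest in macrophages (84.8 and 90.2 CPM). Its receptors were divided: Cysltr1 was highest in monocytes (68.3 and 66.1 CPM) and Cysltr2 in T and NK cells (78.2 and 59.5 CPM). Cyp4f18, which inactivates leukotriene B4, was highest in neutrophils (237 and 216 CPM), as was Fpr2, the lipoxin and formyl peptide receptor (234 and 227 CPM).

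Of these 46 genes, the numbers measured, called higher and called lower were 28, 1 and 3 in malignant cells, 28, 0 and 1 in macrophages, 22, 0 and 0 in fibroblasts, and 22, 1 and 2 in monocytes. In neutrophils they were 15, 1 and 2, in T and NK cells 11, 1 and 0, and in dendritic and endothelial cells 8, 0 and 1 and 8, 1 and 0. The share of all genes called, either way, was 8.47% in malignant cells, 3.67% in macrophages, 5.48% in fibroblasts and 4.68% in monocytes. It was 6.0% in neutrophils, 5.38% in T and NK cells, 7.74% in dendritic cells and 5.48% in endothelial cells. With so few genes measured per class, these counts single out no class. Alox15, a lipoxygenase of macrophages, was called lower in that class, at 15.8 and 8.41 CPM and a ratio of 0.533 (0.461 to 0.616); in the MHC class II sub-cluster, picked because it held the most Alox15 UMIs of the macrophage sub-clusters under vehicle (266, against 80 under beta-elemene), the ratio was 0.262 (0.202 to 0.338), and in the other macrophages together 0.814 (0.679 to 0.976). Those others were uneven: dividing macrophages held 18.9 and 6.80 CPM (77 and 27 UMIs), Fcrls cells 10.4 and 11.3 CPM and Inhba cells 18.8 and 18.2 CPM. In monocytes Alox15 was at 0.540 (0.305 to 0.934), from 39 and 22 UMIs. Ltc4s was lower in dendritic cells, at 35.9 and 17.9 CPM and 0.498 (0.276 to 0.870). Of its UMIs there, the Dcstamp and Mmp12 sub-cluster held 16 and 3 and the Ccl22 and Fscn1 sub-cluster 20 and 11. The Naaa and Clec9a sub-cluster held 3 and 4 and the Cd209a sub-cluster 2 and 2. The ratio without the Dcstamp and Mmp12 cells was not computed.

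Akr1b3, an aldo-keto reductase able to make prostaglandin F2-alpha, was higher in endothelial cells, at 38.9 and 65.8 CPM and 1.69 (1.28 to 2.25). Cbr1, a carbonyl reductase, was higher in monocytes at 1.72 (1.02 to 2.96) and in T and NK cells at 1.85 (1.02 to 3.48), from 24 and 43 and 17 and 39 UMIs. Ggt1, which trims leukotriene C4, was higher in neutrophils at 1.82 (1.03 to 3.38), from 17 and 49 UMIs, and Pla2g10, a secreted phospholipase, lower in malignant cells at 0.260 (0.135 to 0.470), from 63 and 14 UMIs. The calls left, named after their values were seen, were of genes at under 12% of their level in another class: Hpgds was lower in malignant cells and neutrophils, Slco2a1 lower in monocytes and neutrophils, Cysltr1 higher and Cysltr2 lower in malignant cells.

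Of 11 genes known to be induced through cyclic AMP, the messenger of Ptger2 and Ptger4, 0 were called in malignant cells, macrophages and T and NK cells. Of all genes, 8.47%, 3.67% and 5.38% were called in those classes. Areg, a growth factor, was lower in monocytes, at 138 and 74.1 CPM and 0.535 (0.474 to 0.603), and in neutrophils, at 0.654 (0.551 to 0.775), and Vegfa was lower in dendritic cells at 0.580 (0.395 to 0.843). The other calls, also named after their values were seen, were lower Areg in fibroblasts, lower Nr4a2 and Vegfa in endothelial cells, higher Il6 in monocytes and higher Dusp1 in dendritic cells.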

How the data were processed

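Single-cell 3' libraries (Chromium v3 chemistry, per the labels' protocols) were deposited as UMI counts per gene and cell; the matrix headers name Cell Ranger 7.1.0, and the submitters' processing notes name STAR and mm10. The deposited counts were used unchanged, 168750895 UMIs in vehicle (11324 barcodes) and 157282740 in beta-elemene (11539). Cells with at least 200 genes and at most 20% mitochondrial UMIs were kept (10803 and 10861), and called doublets (388 and 336) were removed with Scrublet in scanpy 1.11.5. Cells of both libraries were clustered together (2000 variable genes, 30 components, 15 exact neighbours, Leiden resolution 1.0; sub-clusters 0.6) and named by the highest marker score, with at least 3 markers found in 10% of the cells. Clusters without a lead of 0.2, shallow clusters with fewer than 2 of the class's markers among their 10 leading genes, and clusters led by another class's markers stayed unnamed. Fibroblasts were split from pericytes without the lead of 0.2. A stromal cluster was named fibroblast unless the pericyte score led by a larger set margin.

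UMIs were summed per class and library as CPM. Poisson, ratio and binomial intervals are exact, at 95%. For counts of 0 the text gives a fixed floor of 3 counts, which is lower than the upper end of the exact Poisson interval. The ratio interval alone was tested, on simulated Poisson counts, the model it assumes. That checks the calculation and not the spread between cells or tumours. A ratio was computed from 50 UMIs on in classes of 100 cells in each library, and in sub-clusters of 20 cells. Free RNA in a class was estimated from the marker list of another class that gave the lowest share. Positions come from GENCODE vM21, and promoters from RefSeq (GRCm38.p6).

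All 10 genes are named. Of the wider list, the 3 highest and 3 lowest called ratios per class are named where the level in the higher library is at least 20% of the highest class's, as is any gene's highest class; 3 genes most like each member were computed from genes with at least 500 UMIs. The members and lists were chosen with earlier results of these data known. Sub-clusters were picked for description after their values were seen. Alternatives for clustering, filters, doublets, weighting, scaling, free RNA, pseudocount and minimum were run, and 4 alternatives were added after seeing the data.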

Additional observations from a re-analysis of the deposited data

Results flagged for a closer look

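Ptgs1 and Ptgs2 were singled out because classes went opposite ways between the libraries, with intervals on opposite sides of 1. With 1 library per group the difference between classes was not tested. For Ptgs1, beta-elemene over vehicle gave 1.24 in malignant cells and 0.874 in macrophages. For Ptgs2 it gave 1.19 in neutrophils, against 0.775 in malignant cells, 0.875 in fibroblasts, 0.868 in macrophages, 0.814 in monocytes and 0.525 in T and NK cells.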

How the results depend on the processing

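Counting error is the single error that could be given, since no spread between tumours can be had from 1 library per group. Endothelial, dendritic and T and NK cells gave enough UMIs for only 3, 5 and 5 members, and neutrophils for 8. No paired analysis was possible because each group is 1 library. The 5 called of 56 pairs became 3 of 51 at clustering resolution 2.0 and 3 of 51 with called doublets kept. They became 9 of 56 with every cell weighted alike, 1 of 56 with 10 CPM added and 0 of 46 in the largest sub-cluster of each class alone. With a minimum of 200 UMIs 1 was called. At resolution 2.0 and with doublets kept, too few cells were named dendritic, so Lta4h could not be called there. A lower number thus need not be a lost difference. The 26 of 56 pairs whose interval excluded 1 became 9 of 46 in the largest sub-cluster alone.

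The direction turned in the largest sub-cluster alone for Ptger4 in malignant cells (1.10) and Ltb4r1 in neutrophils (0.967), and for Ptgs2 in monocytes with each library clustered alone (1.28) and, as an alternative chosen after seeing the data, with another random seed of the clustering (1.01). The cause was not tested. Of the member ratios, 11 of 51 moved beyond their interval with each library clustered alone and 18 of 46 in the largest sub-cluster alone. None moved beyond it or turned when ratios were scaled by the median of all genes or when the cell with most UMIs was left out. The same held when malignant clusters of under 10 cells in 1 library were left out, chosen after seeing the data. Without low-depth clusters it held for the 48 of 56 pairs that remained. The pairs lost there were not checked, and neutrophils were the shallowest compared class, at median depths of 1922 and 1981 UMIs. With macrophages and monocytes summed, also chosen later, 1 moved. Values that moved by over 1.5 times outside the largest sub-cluster were, with each library clustered alone, Ptgs1 (0.421), Ptges (1.44), Ptger2 (1.41), Alox5 (0.263) and the Ptgs2 value above in monocytes and Hpgd in malignant cells (0.318); with free RNA subtracted, Alox5ap in fibroblasts (4.07) and malignant cells (2.075); with every cell weighted alike, Alox5 in malignant cells (0.620); with 10 CPM added, Ltb4r1 in malignant cells (1.04); and, at resolution 2.0, Ptgs2 in T and NK cells (0.350). Without the Lyz2 sub-cluster, chosen after seeing the data, Alox5ap in endothelial cells was 0.339.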

Other observations

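Outside the compared classes, 2 small groups held the leukotriene enzymes at high levels. Mast-like cells (14 vehicle and 8 beta-elemene cells) held 263 and 351 CPM of Alox5, from 10 and 6 UMIs, 447 and 818 CPM of Alox5ap, from 17 and 14 UMIs, and 263 and 58.4 CPM of Ptgs1, from 10 and 1 UMIs. An unnamed cluster led by Retnlg, Retnla, Serpinb2 and Alox15 counted 76 vehicle and 14 beta-elemene cells, with median depths of 613 and 541 UMIs. The neutrophil list scored highest in it (1.09, against 0.35 for the next list) with 6 markers detected. It stayed unnamed because its cells were shallow for their libraries and fewer than 2 neutrophil markers were among its 10 leading genes. The 11 neutrophil markers summed to 20597 and 14457 CPM in it, against 135672 and 129271 CPM in neutrophils. Of that sum Retnlg gave 15488 and 10843 CPM, and S100a9 285 and 374 CPM. Ccr3 stood at 468 and 623 CPM (23 and 5 UMIs) and Siglecf at 142 and 125 CPM (7 and 1 UMIs). Il5ra had 7 and 0 UMIs, Prg2 4 and 2, and Epx 1 and 0. What cell type the cluster is was not tested. In the vehicle library it held 41 UMIs of Ptgs2, 46 of Alox5ap, 19 of Alox5 and 29 of Alox15, and in the beta-elemene library 1, 4, 1 and 4. Its Cyp4f18 level was 1323 and 1620.1 CPM, from 65 and 13 UMIs, and no UMI of Ltc4s or Hpgds was seen in it.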
